A study of Mus musculus with 6 samples.

Results

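Capture with the masked TH59-DB probe was compared with the input chromatin it was drawn from, over 4 of the 6 libraries of the study. They were 2 libraries labelled as masked TH59-DB pull-down, the negative control, and 2 labelled as input, chosen by their titles and by no measured value. All came from MEL cells, a mouse erythroleukemia line labelled with the strain C57BL/6, grown in roller bottles and crosslinked with formaldehyde before the chromatin was prepared. RNA was released by reversing the crosslinks and sequenced with a stranded total RNA kit. The other 2 libraries were captured with the unmasked TH59-DB probe; they shared the estimate of spread in the test, and their values are given for the loci that stood out. In each group 1 title carries the number 2 and the other carries none, which is called number 1 here, and nothing says that the libraries came from separate cultures. Every p-value therefore measures only the spread between these libraries, which may be technical.

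Pyrrole-imidazole polyamides are synthetic ligands that read short DNA sequences in the minor groove. TH59-DB is such a probe directed at telomeres, and chromatin fragments pulled down with it carry the RNA crosslinked to them. A negative-control probe shows which RNA comes along in the procedure itself, whatever its source, and the input shows how abundant each RNA was in the chromatin before capture. RNA in crosslinked chromatin includes nascent and intronic transcripts, nuclear non-coding RNAs, and carried-over cytoplasmic and ribosomal RNA. The question of the comparison is which RNAs were higher or lower in the control capture than in its starting material.

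The files hold read counts for 7959 assembled transcript models, which form 7853 loci when models with overlapping exons are joined. Library totals were 2985229 and 2854992 reads in input 1 and 2, and 1970838 and 3122558 in masked TH59-DB 1 and 2. A single read was therefore between 0.320 and 0.507 reads per 1000000 of the library total (CPM) in these 4 libraries. The models took 51.8% and 45.4% of the input totals and 69.2% and 43.0% of the masked totals. The models were listed with at least 5 reads in TH59-DB 1 without exception, so they may have been chosen from that library, and RNA seen only in input or masked libraries may be missing. Gene names come from RefSeq gene spans, which hold no exons, so a model in a span need not be part of that gene's transcript, and exon or intron could not be assigned. MEL identity rests on the sample labels and was not measured here, since a model may only show that TH59-DB 1 had reads there. The erythroid regulators Gata1, Klf1 and Epor had models, and so did Laptm5 and Itga2b, 2 of 12 markers of other blood cells. The globin genes, Alas2, Slc4a1 and Tfrc had no model assigned, and no marker of fibroblasts or epithelium had one.

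The 2 masked libraries differed from each other more than the inputs did. Masked TH59-DB 1 had 0 reads in 4341 of the 7959 models, against 1859 in masked TH59-DB 2 and 1760 and 1884 in the inputs. Only 30.3% of the models reached 10 reads in masked TH59-DB 1, and 58.7% did in masked TH59-DB 2. Over all models the Spearman correlation of counts was 0.921 between the inputs and 0.700 between the masked libraries. Masked TH59-DB 2 stood at 0.861 and 0.869 with input 1 and input 2, closer than to the other masked library. Masked TH59-DB 1 stood at 0.659 and 0.649 with the same inputs. These correlations are across models, which share depth and library and are not independent. The median absolute log2 difference between the libraries of a group, over the 5385 models tested, was 0.72 for input and 1.83 for masked TH59-DB.

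**Figure D1:**
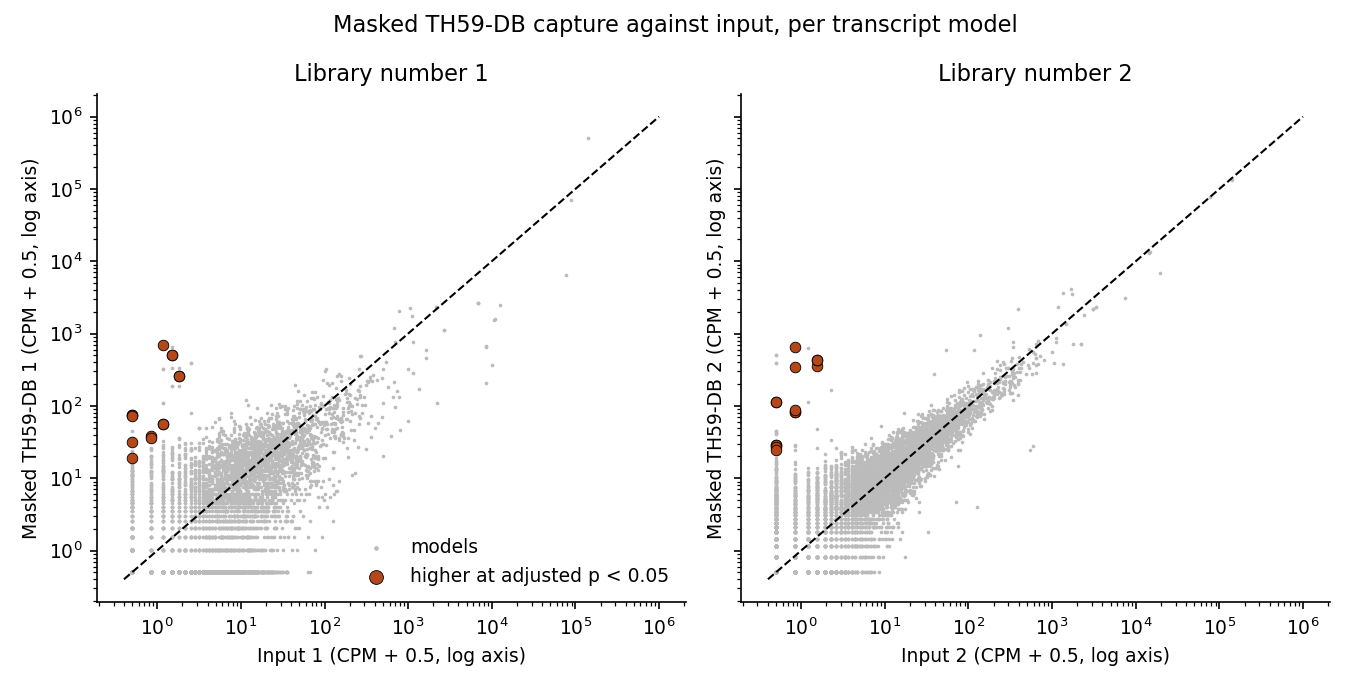
Each point is a transcript model, with its CPM + 0.5 in an input library on the horizontal log axis and in the masked library of the same number on the vertical log axis; the dashed line marks equal values. For number 2 the models lie mostly along the line. For number 1 they lie more widely, and the 4341 of 7959 models with 0 reads in masked TH59-DB 1 lie at the lowest vertical value. The 14 models that passed the test, in red, lie at 4 or fewer reads in either input library.

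Much of the masked RNA was the same abundant material that filled the input. The most abundant item in all 4 libraries was a single-exon model of 414 bases inside the span of Zc3h7a, a CCCH zinc finger gene, at chr16:11143911-11144324 (mm10). It took 14.1% and 14.3% of the input totals, and 50.8% and 13.4% of the masked totals. Masked TH59-DB 1 was therefore the only one of the 4 that stood apart for this model, and the groups overlapped. The fitted log2 difference, masked minus input, was 1.15 ± 1.44 (SE), with an adjusted p of 0.905 in edgeR's quasi-likelihood test. It was -0.54 without masked TH59-DB 1. A model of 6105 bases at chr17:39842884-39848988, which spans the 18S-like ribosomal RNA gene Rn18s-rs5, took 8.80% and 7.75% of the input and 7.13% and 7.79% of the masked totals. Its groups overlapped too, with a log2 difference of -0.37 ± 1.19 (SE) and an edgeR adjusted p of 0.978.

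Mitochondrial ribosomal RNA also filled part of both groups. The larger of 2 overlapping models at mt-Rnr1, the mitochondrial small-subunit ribosomal RNA gene, had 32670 and 42104 reads in the inputs. It had 3119 reads in masked TH59-DB 1 and 42167 in masked TH59-DB 2, so the masked libraries lay on both sides of a wide gap and only the first was low. All 7 mitochondrial loci together took 1.18% and 1.58% of the input totals and 0.278% and 1.93% of the masked totals. The mitochondrial share thus differed more between the masked libraries than between the groups. The median log2 difference of the 8 mitochondrial models was 1.33, with 6 positive, but within the numbers it was -0.13 and 2.42. The highest of them, at chrM:15656-16188, had 45 and 154 input reads and 182 and 1854 masked reads, so both masked libraries were above their input (log2 difference 3.08 ± 1.01 SE; edgeR adjusted p = 0.492), while the mt-Rnr1 models were the lowest.

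Malat1, a long non-coding RNA of nuclear speckles, was among the most abundant items of the masked libraries. The longer of its models (3137 bases) stood at 1045 and 1665 CPM in input 1 and 2, and at 2231 and 4177 CPM in masked TH59-DB 1 and 2. Both masked values were above both inputs. The log2 difference was 1.03 ± 0.91 (SE) and did not pass (edgeR adjusted p = 0.854). A second Malat1 model that shares its reads had a log2 difference of 1.21.

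Several abundant loci of the input were lower in both masked libraries, although none passed the test. A model of 188 bases in no gene span, at chr6:49236453-49236640, had 228457 and 56147 reads in the inputs, and 12794 and 21163 in the masked libraries. In CPM these were 76529 and 19666 against 6492 and 6777, so the masked libraries were near each other and the inputs were far apart. Its log2 difference was -3.23 ± 1.32 (SE; edgeR adjusted p = 0.655). A model of 469 bases in no gene span on chromosome 3 (from 5860342) held 37242 and 21532 input reads and 4863 and 9564 masked reads, a log2 difference of -2.15. Single-exon models inside Il31ra, a cytokine receptor gene, and Gphn, the gephyrin gene of inhibitory synapses, had the same form. The Il31ra model had 30114 and 3038 reads in the inputs against 728 and 1217 in the masked libraries. The Gphn model had 25762 and 6258 against 1311 and 2218. In each of these 4 models both masked libraries were below both inputs, and input 1 was the highest library. They were taken from the most abundant input models because they were lower, so this order follows from the choice. The Zc3h7a and ribosomal RNA models above overlapped between groups. Of all 3439 models with at least 10 reads in both inputs, 630 (18.3%) were below both inputs. Without input 1 the log2 differences were -1.24 for the chromosome 6 model, -1.16 for the chromosome 3 model, -1.16 for Il31ra and -1.35 for Gphn.

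Shares of reads by class of locus showed the same mixture. All values are relative to a library total, so more of one RNA and less of the others cannot be told apart. Loci in no gene span and not within 100 kb of a distal mark took 10.7% and 3.40% of the input and 1.62% and 1.97% of the masked totals. A distal mark stands only at the end of a chromosome with the highest coordinate. This class did not overlap between groups, and the chromosome 6 model above made up much of its input share. Small RNA genes (88 loci) took 0.839% and 0.712% of input and 0.455% and 0.596% of masked totals. This gap was not kept when the 2 most abundant models were left out of all totals: the shares were then 1.09% and 0.914% in input and 1.08% and 0.757% in masked libraries. LncRNA gene spans took 0.480% and 0.459% of input and 0.485% and 0.855% of masked totals. Without the 2 most abundant models these became 0.622% and 0.589% against 1.15% and 1.09%, 1.85 times as much in number 1 and 1.84 times in number 2. Much of this difference lay in the Malat1 locus. Of the full totals, it alone took a mean of 0.136% in input and 0.320% in masked libraries, beside 0.469% and 0.670% for the whole class. Spliced models in protein-coding spans took 5.71% and 9.12% of input and 3.83% and 8.34% of masked totals, with overlap. Single-exon models in such spans took 5.57% and 4.35% of input and 2.60% and 4.50% of masked totals, also with overlap. No test was run on shares: an exact permutation test of 2 libraries against 2 cannot go below a 2-sided p of 0.333.

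**Figure D2:**
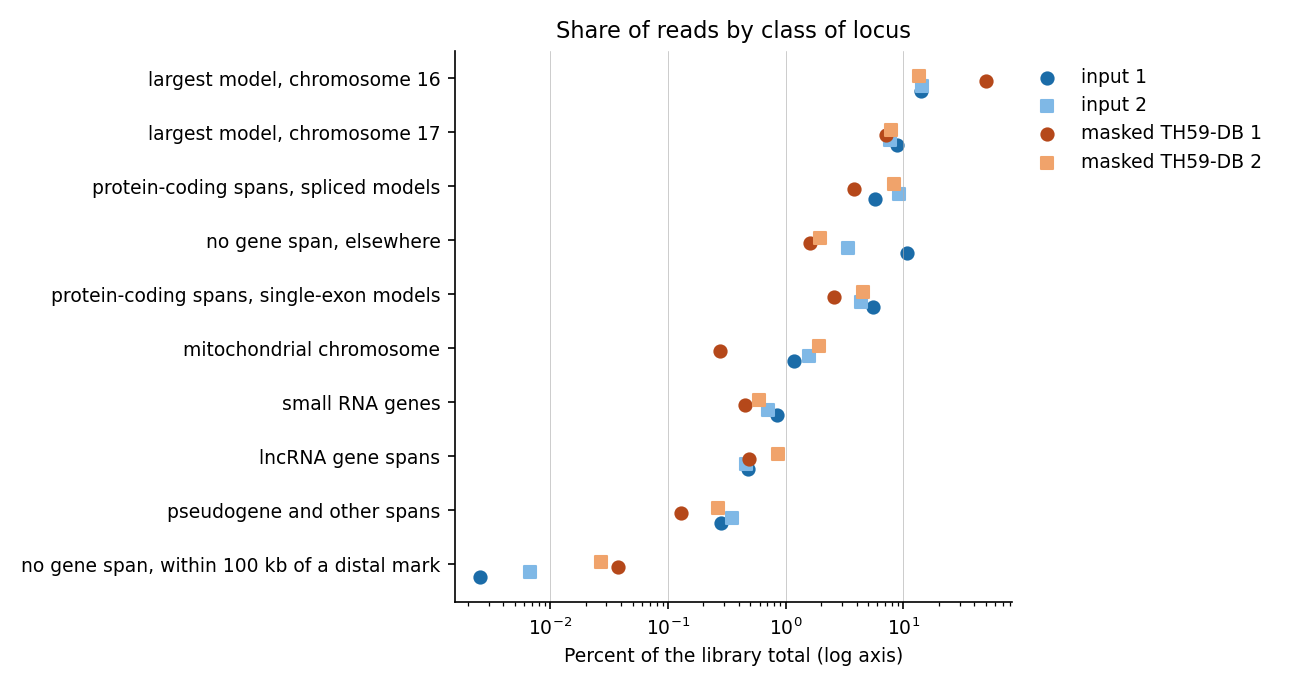
Percent of each library total (log axis) in 10 classes of locus, with 1 symbol for each of the 4 libraries (circles number 1, squares number 2). The chromosome 16 model is at 50.8% in masked TH59-DB 1 alone, and loci in no gene span within 100 kb of a distal mark (where the last gene or model of a chromosome ends) are the class with the masked libraries farthest above the inputs.

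In the fit of all 6 libraries, 14 of the 5385 models tested were higher in masked TH59-DB than in input (0.260% of the models tested) and 0 were lower (0%), at a Benjamini-Hochberg adjusted p under 0.05 in edgeR's quasi-likelihood test. At an unadjusted p under 0.05, 208 were higher (3.86%) and 159 lower (2.95%). DESeq2 on the same models called 101 higher and 20 lower, but it gave no adjusted p for 1775 of the 5385. Leaving out either input library left 0 models higher by the edgeR test, with 145 higher at an unadjusted p under 0.05 without input 1 and 127 without input 2. Leaving out masked TH59-DB 2 gave 409 higher and 1004 lower, leaving out masked TH59-DB 1 gave 69 and 30, leaving out TH59-DB 1 gave 69 and 0, and leaving out TH59-DB 2 gave 58 and 6. The count thus depends strongly on single libraries. The median log2 difference over all models tested was -0.26, and list medians below are read against it.

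The 14 models form 9 loci, on 8 chromosomes, and 5 of these loci lie in no gene span. What they share is that they were nearly unread in the input: no called locus had more than 4 reads in an input library or fewer than 36 in a masked library. Since models were listed with at least 5 reads in TH59-DB 1, a locus with so few input reads had to be above input in that library in count, and nothing is read from that order. At 6 of the 9, both TH59-DB libraries were above both masked libraries (125 of the 2163 loci with at least 10 reads in both masked libraries), and at 1 they were both below (780 of the 2163).

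The locus with the most masked reads lies in no gene span at chr10:109396053-109422780, as a model of 53 bases in 2 exons. It had 2 and 1 reads in input 1 and 2, 1385 and 2030 in masked TH59-DB 1 and 2, and 1594 and 2439 in TH59-DB 1 and 2. The 2 masked libraries agreed closely, at 676 ± 37.2 CPM (SD, n = 2), and input was at 0.510 ± 0.226 CPM. On pooled reads the masked to input ratio was 1305, with a 95% exact binomial interval of 446 to 6332 that covers counting error only. Its log2 difference was 10.07 ± 1.27 (SE; edgeR adjusted p = 0.0312), and the TH59-DB libraries were little above the masked ones, at 884 and 942 CPM.

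A locus in no gene span at chr2:46225730-46225905, with 2 overlapping models, had 3 and 3 reads in the inputs, 1009 and 1338 in the masked libraries and 2300 and 8680 in the TH59-DB libraries. Masked TH59-DB was at 470 ± 59.0 CPM (SD, n = 2). The pooled ratio was 449 (206 to 1223), and the log2 difference was 8.64 ± 1.40 (SE; edgeR adjusted p = 0.0378). The next locus in masked level was in the span of Setd4, which encodes a SET-domain protein methyltransferase, at chr16:93597220-93598846. Its longer model had 4 and 3 reads in the inputs, 517 and 1096 in the masked libraries, and 3177 and 7039 in the TH59-DB libraries. Masked TH59-DB was at 307 ± 62.7 CPM against 1.20 ± 0.204 in input (SD, n = 2 each), a log2 difference of 7.72 ± 1.23 (SE; edgeR adjusted p = 0.0378). At both loci the 3 groups did not overlap, and TH59-DB was the highest.

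A further 3 loci in gene spans passed. A single-exon model in Scn8a, the gene of a neuronal voltage-gated sodium channel, at chr15:100935304-100935571, had 0 and 1 input reads and 144 and 271 masked reads. Its log2 difference was 8.39 ± 1.17 (SE; edgeR adjusted p = 0.0312), and TH59-DB was at 84.8 and 161 CPM against 73.1 and 86.8 in the masked libraries, so those 2 groups overlapped. The model in Ttc21b, which encodes an intraflagellar transport protein of cilia, at chr2:66185762-66189510, had 1 and 0 input reads and 75 and 87 masked reads. The TH59-DB libraries had 77 and 92 reads there. Its log2 difference was 7.11 ± 1.11 (SE; edgeR adjusted p = 0.0378). The third lies in Gm32035, a predicted gene, at chr4:93844367-93844579, with 2 and 1 input reads and 111 and 257 masked reads. Unlike at Ttc21b, TH59-DB was far above masked TH59-DB at Gm32035, at 628 and 932 CPM against 56.3 and 82.3, and the log2 difference of masked minus input was 6.72 ± 1.12 (SE; edgeR adjusted p = 0.0402).

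The last 3 loci, in no gene span, had 0 reads in both inputs, so their folds are lower bounds against 3 reads per input library. The locus at chr8:71433020-71433238 had 148 and 354 masked reads and was at least 91.7-fold higher. The one at chr14:95638412-95638454 had 61 and 76 masked reads and was at least 26.9-fold higher. The one at chrY:140526-146900 had 36 and 88 masked reads and was at least 22.6-fold higher. All 3 had an edgeR adjusted p of 0.0312 to 0.0378. They differed in the unmasked capture: the chromosome 8 and Y loci had more reads there (593 and 1178, and 309 and 565), while the chromosome 14 locus had fewer, 38 and 24.

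The loci just outside the threshold had the same form. A model at chr13:116192889-116193000 had 3 and 2 input reads and 1305 and 1989 masked reads (edgeR adjusted p = 0.0560). A model in Lama1, which encodes a laminin chain of basement membranes, had 2 and 0 input reads and 633 and 1213 masked reads (edgeR adjusted p = 0.0524). Which side of the threshold a locus fell on was thus not a matter of masked and input read number alone. The TH59-DB libraries, which share the estimate of spread, had 3174 and 23552 reads at the chromosome 13 model and 2027 and 9720 at the Lama1 model. The part of their spread in the calls was not tested.

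**Figure D3:**
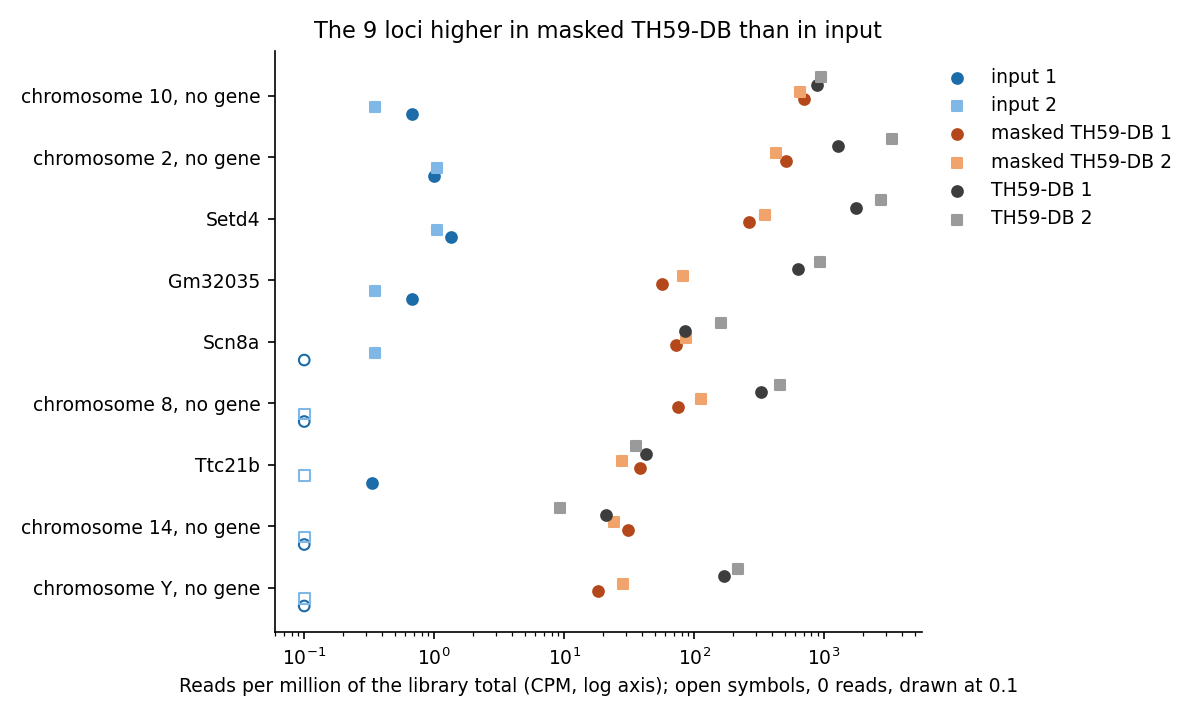
CPM on a log axis at the 9 loci that passed, with 1 symbol for each of the 6 libraries (circles number 1, squares number 2); open symbols at 0.1 stand for 0 reads. At every locus the masked libraries lie to the right of both inputs, and at the chromosome 14 locus the TH59-DB libraries lie to the left of the masked ones.

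Loci were also counted by the order of the libraries, without a test. Of the 2235 models with at least 10 reads in both masked libraries, 679 (30.4%) were above both inputs. Of the 3439 models with at least 10 reads in both inputs, 630 (18.3%) were below both inputs in both masked libraries. The read minimum was applied to the group that had to be the higher one, so each share is of models that could pass by being high there. The lower masked value was over 10 times the higher input value at 33 of 2163 loci, and over 100 times at 6. In the other direction, the lower input value was over 5 times the higher masked value at 18 of 3376 loci and over 10 times at 10. These fold limits were set after the data were seen.

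The 33 loci over 10-fold lay more often outside gene spans than the rest, as a description without a test. Of them, 20 (60.6%) were in no gene span, against 163 of the 2163 loci with enough masked reads (7.54%). Spliced models made up 15 of the 33 (45.5%), near the 48.3% of the 2163 loci. Of the 33, 2 lay 1 Mb or less from a distal mark, against 31 of the 2163, and 0 held a small RNA gene, against 48 of the 2163. Of the 18 loci over 5-fold lower, 3 were spliced (16.7%), against 46.4% of the 3376 loci with enough input reads. Their median masked level was 0.240 CPM, less than 1 read in either masked library. With a read minimum of 20 only 3 loci were over 5-fold lower, so nothing is read from the spliced share. All 18 lay in gene spans, and over the 3376 loci only 4.00% lay in none, so this was near the background.

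No model passed in the lower direction, and at the loci of smallest p there 1 of the 2 inputs was far above the other. A group of 3 overlapping models at chr2:98662237-98667258, in no gene span, was high in input 2. The model of smallest p, of 746 bases, had 39 and 363 reads in input 1 and 2, and 6 and 11 in the masked libraries, a log2 difference of -4.36 ± 0.98 (SE; edgeR adjusted p = 0.127). The longest had 185 and 1682 against 20 and 85, with a log2 difference of -4.16 ± 1.02 (SE; edgeR adjusted p = 0.174). A model of 95 bases at chr7:99497728-99497822 was high in input 1, with 376 and 24 reads in the inputs against 4 and 5 (log2 difference -5.66; edgeR adjusted p = 0.211). The 5S-like ribosomal RNA gene LOC115490001 on chromosome 4 had 187 and 29 input reads and 2 and 5 masked reads (edgeR adjusted p = 0.244). A chromosome 14 model (from 19417214) had 23 and 200 input reads and 0 and 13 masked reads (edgeR adjusted p = 0.359). At all of these loci both masked libraries were below both inputs, while the inputs differed from each other by several fold. Over the alternative settings the log2 differences stayed below 0, at -1.88 for the chromosome 7 model and at -2.68 for LOC115490001 where they were nearest to it. Of 17 alternatives, 6 and 7 called these models lower, and 5 did so for the chromosome 14 model and for the longest chromosome 2 model.

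Smaller and steadier differences were seen in gene-span models with few reads. Slc25a39, which encodes a mitochondrial carrier protein, had 47 and 49 reads in the inputs and 6 and 10 in the masked libraries, or 15.7 and 17.2 CPM against 3.04 and 3.20. Its log2 difference was -2.58 ± 0.95 (SE; edgeR adjusted p = 0.581). Mrpl9, a mitochondrial ribosomal protein gene, had 53 and 45 reads against 7 and 13. Nop2, which encodes a nucleolar RNA methyltransferase, had 17 and 23 against 1 and 3, and Bcl2, an inhibitor of apoptosis, had 21 and 16 against 1 and 2. The 4 were among the models picked because their higher masked value was the smallest fraction of the lower input value. That the groups did not overlap follows from this choice. Of all models with at least 10 reads in both inputs, 18.3% were below both inputs. In all 4 the inputs were near each other. None of the 4 passed.

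RNA near the chromosome ends was of interest because the unmasked probe is directed at telomeres. The true ends are not known from these files, so the end of the outermost gene or model of each chromosome served as its distal mark. Only the end with the highest coordinate was marked, so loci near the other end of a chromosome count as far from a mark. The 55 loci within 10 kb of a mark summed to 3.35 and 4.55 CPM in the inputs, 350 and 221 CPM in the masked libraries, and 5843 and 31732 CPM in the TH59-DB libraries. The 3 groups did not overlap. Nearly all of the masked reads there came from 2 loci. The first, at chr2:182012702-182013229, had 4 and 5 input reads and 471 and 514 masked reads, a log2 difference of 6.90 (edgeR adjusted p = 0.157). The second, at chr14:124799247-124801911, had 2 and 0 input reads and 212 and 138 masked reads, a log2 difference of 7.51 (edgeR adjusted p = 0.127). Of the other 53 loci, those with the next most masked reads had 2 and 22 on chromosome 5 and 0 and 12 on chromosome 19. Any read was found at 7 and 6 of the 55 loci in the masked libraries and at 5 and 6 in the inputs, so the masked reads were no more widely spread over the loci than the input reads. TH59-DB 2 had reads at 52 of the 55, and TH59-DB 1 had them at all 55, as the listing of models requires.

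Farther from the marks the masked and input sums came together. At 10 to 100 kb (75 loci) the inputs held 73.7 and 145 CPM and the masked libraries 144 and 157 CPM, while TH59-DB held 4958 and 4548. The groups overlapped in these sums. Of the 5 loci there with at least 10 reads in both masked libraries, 4 were above both inputs (80%, beside 30.4% over all models). Nothing is read from so few loci. At 100 kb to 1 Mb the inputs held 1080 and 1734 CPM and the masked libraries 1148 and 1915 CPM, which overlapped. Of the 24 loci there with at least 10 reads in both masked libraries, 9 were above both inputs (37.5%, beside 30.4% over all models).

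**Figure D4:**
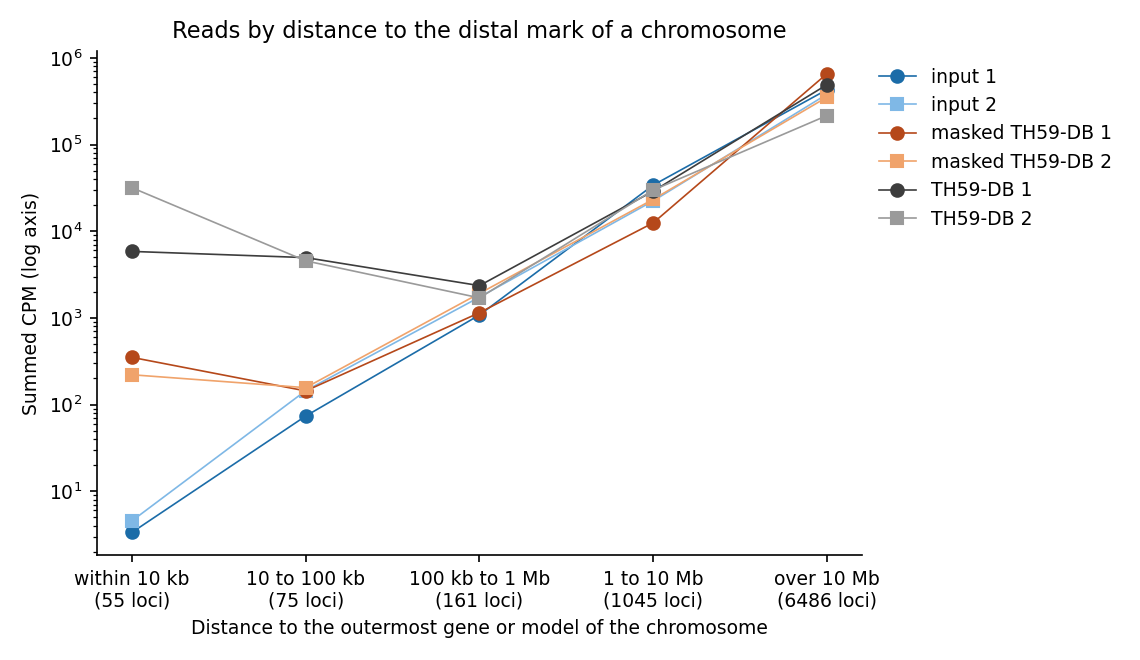
Summed CPM (log axis) of loci in 5 classes of distance to the distal mark, with 1 line for each of the 6 libraries. Within 10 kb the masked libraries are at 350 and 221 CPM, above the inputs and below TH59-DB; from 10 kb outwards the masked and input lines come close together.

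The genes of telomere biology themselves gave no call. Terc, the RNA template of telomerase, had 100 and 68 reads in the inputs and 152 and 149 in the masked libraries. In CPM it was 33.5 and 23.8 against 77.1 and 47.7, so both masked libraries were above both inputs. The log2 difference was 0.94 ± 1.06 (SE; edgeR adjusted p = 0.893), and the TH59-DB libraries had 56510 and 36137 reads. Nhp2, a protein of H/ACA particles and telomerase, had 77 and 96 input reads and 20 and 71 masked reads (log2 difference -1.11). A model in Terf2, which encodes a shelterin protein that binds telomere repeats, had 4 and 4 input reads and 68 and 1 masked reads, so the masked libraries fell on opposite sides of the inputs. The median over the 5 models tested of telomerase and shelterin genes was 0.94, which turned to -0.86 with only the 4 input and masked libraries and was below 0 without masked TH59-DB 2 as well.

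Lists of genes were compared by their members' log2 differences, without a test of the list. Of the 22 lists, 21 had a model tested, and in those 21 no member passed in either direction. Their medians were above 0 in 5 lists and below 0 in 16. At an unadjusted p under 0.05 in edgeR, no list had more than 4 models higher (Zfp-named genes) or more than 4 lower (ribosomal protein and chaperone genes). DESeq2 called models in Eif4a1, Ccnl2, Zfp629 and Zfp808 and on the mitochondrial chromosome as higher, and a model in Zfp791 as lower. With masked TH59-DB 2 left out, where 1004 models in all were called lower, edgeR called 8 ribosomal protein, 16 translation factor, 11 erythroid, 8 glycolysis and 26 Zfp-named models lower, and 1, 3, 0, 0 and 12 higher. Within a library number the medians of all models were -0.94 for number 1 and 0.14 for number 2 on the CPM scale, so the values for each number are given beside the fitted ones. Relative to the median of all models, the lists of ribosomal protein, translation factor, glycolysis, histone, Y-box, secretory, snoRNA host and snoRNA genes turned from below to above it when masked TH59-DB 2 was left out.

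Genes of abundant cytoplasmic mRNAs mostly had negative values. Of the 73 tested models of cytosolic ribosomal protein genes, 68 were negative, with a median of -0.90 (all models -0.26). Their medians within the numbers were -1.08 and -0.51, and 19 of 69 models with enough input reads were below both inputs (18.3% over all models). Together they took 0.985% and 1.71% of the input totals and 0.522% and 1.19% of the masked totals, which overlap. The member with the highest value, Rps15a, had 6 and 24 input reads against 47 and 20. The member with the lowest, Rps3a3, which is annotated as a pseudogene, had 27 and 21 against 0 and 12. Translation factor genes had a median of -1.01 (52 of 64 negative), glycolysis genes -1.08 (26 of 33), heat shock and chaperone genes -1.10 (22 of 22) and cytoskeleton genes -0.82 (16 of 17). Host genes of snoRNAs had a median of -0.85 (11 of 13), genes of secretory and membrane proteins -0.40 (21 of 28) and Y-box and cold-shock genes -0.56 (5 of 6). The 1 positive cytoskeleton model, in the actin-capping gene Capzb, had 2 and 0 input reads and 0 and 12 masked reads. Among them Eif4a1, an RNA helicase of translation initiation, went the other way, with 4 and 3 input reads and 69 and 15 masked reads. Actb, the cytoplasmic actin gene, had 1062 and 1376 input reads and 143 and 852 masked reads, with a log2 difference of -1.60 (edgeR adjusted p = 0.748). Gapdh, a glycolytic enzyme gene, had 10 and 21 against 0 and 11. Hspe1, the mitochondrial co-chaperonin gene, was at -0.33, the highest of its list, and Hspa9, a mitochondrial chaperone gene, at -1.80, the lowest. Ybx1, which encodes an RNA-binding cold-shock protein, had 846 and 1641 input reads and 205 and 849 masked reads, while its relative Ybx3 had 209 and 434 against 302 and 237, a log2 difference of 0.06.

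Histone genes had a median of -0.94, with 33 of 35 models negative (3171 of 5385 over all models) and 16 of 35 below both inputs (18.3% over all models). H4f16 had the lowest value, with 133 and 280 input reads and 11 and 134 masked reads. H2aj had the highest, with 31 and 87 against 57 and 111. The medians within the numbers were -1.39 and -0.30, so both were below 0 and that of number 1 was the lower.

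Nuclear RNAs were divided. The 25 tested models of nuclear lncRNAs had a median of 0.50, with 19 positive. They come from 6 genes, and with 1 model a gene 6 of 6 were positive with a median of 0.99. Malat1 and Terc, described above, are among these genes, so the list is not separate from them. Terc counts among the telomerase genes as well. The medians within the numbers were 0.38 and 0.81. A model of 732 bases in Kcnq1ot1, the imprinted antisense lncRNA, had 10 and 10 input reads and 12 and 75 masked reads, or 3.35 and 3.50 CPM against 6.09 and 24.0 (log2 difference 1.79 ± 0.80 SE; edgeR adjusted p = 0.732). Another Kcnq1ot1 model had the lowest value of the list, -3.12, with 2 and 25 input reads and 0 and 3 masked reads. Models of genes with retained introns had a median of -0.14, which was above 0 without TMM factors, without input 2 and without masked TH59-DB 1 (0.15, the highest). Of 30 with enough masked reads, 9 were above both inputs, near the 30.4% over all models. Ccnl2, a cyclin involved in splicing, had the highest value in that list, with 6 and 2 input reads and 158 and 11 masked reads. Of 132 tested models in Zfp-named zinc finger genes, 74 were positive, with a median of 0.14. It was 0.00 without the filter and below 0 with the replicate block, with masked TH59-DB 2 left out (-2.93) and with TH59-DB 2 left out. In these genes 22 of 40 models with enough masked reads were above both inputs (30.4% over all models). The medians of these genes within the numbers were -0.82 and 0.57, so the sign differed between the numbers.

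Small structured RNAs had negative medians in the fit, whose size depended on input 1. The 6 small polymerase III RNAs were all negative, with a median of -2.09, and the medians within the numbers were -2.44 and -0.25. Without input 1 the median was -0.22. Of the 5 with enough input reads, 3 were below both inputs (18.3% over all models). Rny3, a Y RNA, had 373 reads in input 1 and 23 in input 2, and 15 and 20 in the masked libraries. Rnu11 and Rnu12, RNAs of the minor spliceosome, had 135 and 25, and 209 and 20, in the inputs, and 22 and 39, and 32 and 38, in the masked libraries. For these 3 RNAs input 1 alone was high, and without it Rny3, Rnu11 and Rnu12 had log2 differences of 0.15, 0.73 and 1.39. The longer RNAs varied less. Rpph1, the RNA of RNase P, had 6540 and 9555 input reads and 4576 and 7323 masked reads, which in CPM was 2191 and 3347 against 2322 and 2345. Rmrp, the RNA of RNase MRP, had a log2 difference of -1.25, and Rn7sk, the RNA that holds P-TEFb inactive, -0.54, and neither passed. Box C/D snoRNAs had a median of -1.46 (9 of 9 negative) and H/ACA snoRNAs -1.44 (12 of 14 negative), with medians for number 2 of 0.06 and 0.18. Without input 1 these list medians were 0.0027 and -0.17. With enough input reads, 4 of 8 C/D and 6 of 13 H/ACA models were below both inputs. Snord45c, the highest of the C/D list, had 16 and 15 input reads and 0 and 37 masked reads, and Snord13, the lowest, had 14 and 2 against 0 and 4. ScaRNAs, which guide modification in Cajal bodies, had a median of 0.19 over 5 models, from Scarna6 (41 and 75 input reads, 7 and 23 masked reads) to Scarna17 (7 and 15 against 20 and 15).

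The shortest models stood apart in the differences between libraries of a group. Among models of at most 100 bases (50 loci), the median log2 ratio of input 1 to input 2 was 1.41, while among those over 500 bases it was -0.46. The ratio of masked TH59-DB 1 to masked TH59-DB 2 had medians of 0.31 and -1.11 in the same classes. Neither ratio moved steadily with length. The masked median was lowest, at -2.06, from 200 to 300 bases, where the input median was -0.60. The loci of at most 100 bases took 0.371% of input 1 and 0.0305% of input 2, and 0.0594% and 0.0383% of the masked libraries. The part of length in the values of the small RNAs was not tested.

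Erythroid genes had a median of -0.39 over 51 models, with 18 positive. Gata1, the erythroid transcription factor, had 24 and 31 input reads and 29 and 63 masked reads, or 8.04 and 10.9 CPM against 14.7 and 20.2, so the groups did not overlap; its log2 difference was 0.69 ± 0.83 (SE; edgeR adjusted p = 0.902). Of the 24 erythroid models with at least 10 reads in both masked libraries, 4 were above both inputs (16.7%, beside 30.4% over all models). Of the 40 with at least 10 reads in both inputs, 10 were below both (25%, beside 18.3%). Gfi1b, a repressor of the erythroid lineage, had 45 and 47 against 0 and 16 and the lowest value of the list. Ppox, an enzyme of heme synthesis, had the highest, with 6 and 9 against 0 and 54. Markers of other blood cells had 3 models tested, all negative, from 2 of the 12 genes of that list, Laptm5 and Itga2b. Together they took 0.00241% and 0.00494% of the input and 0.000406% and 0.00391% of the masked totals.

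**Figure D5:**
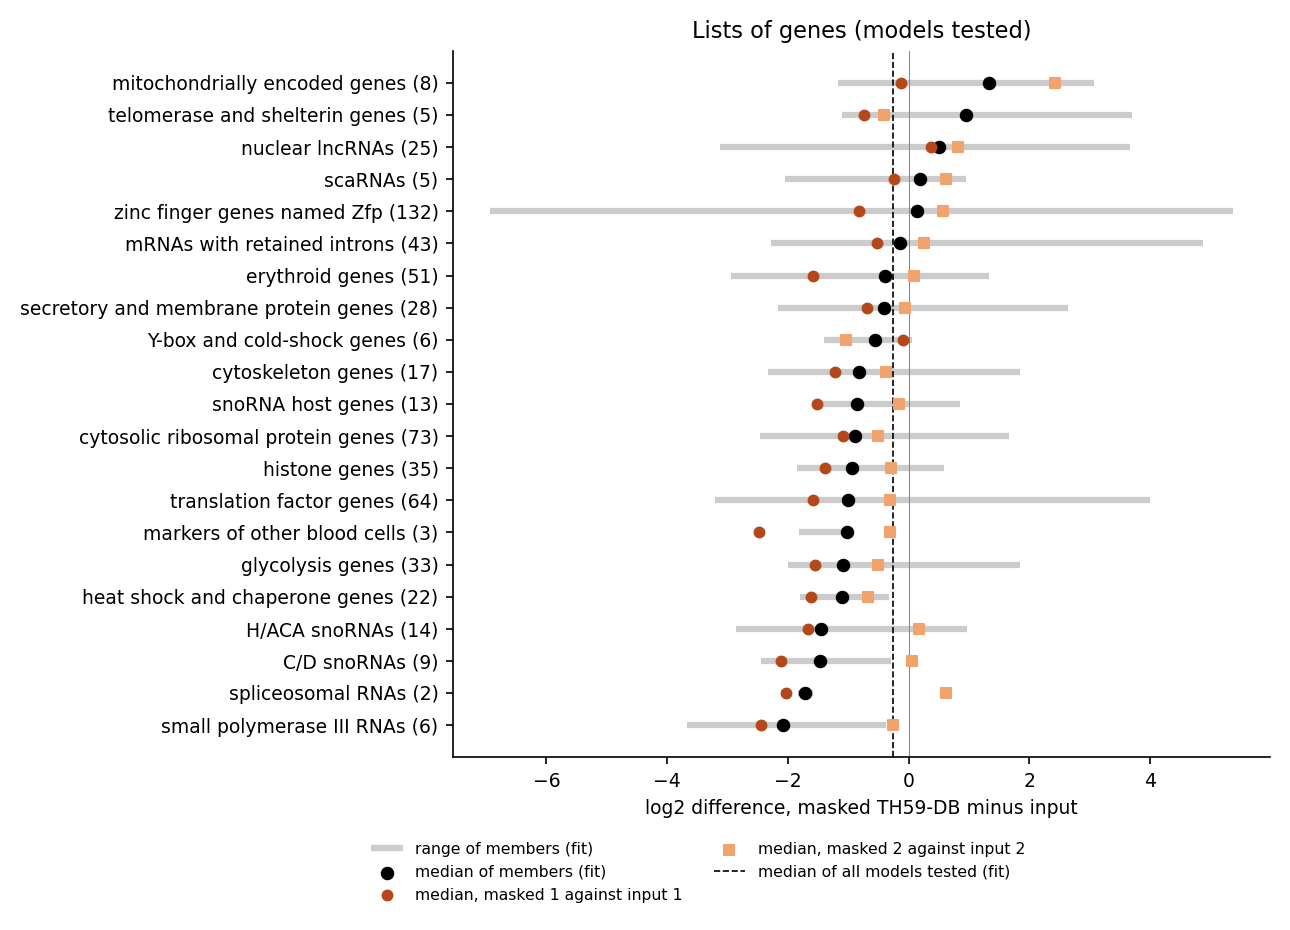
Log2 differences, masked TH59-DB minus input, for the 21 lists with models tested (number of models in brackets): grey bars give the range of the members and black points their median in the fit of 6 libraries, and coloured symbols give the median of each library number on the CPM scale. The dashed line is the median of all models tested, -0.26. The medians of number 1 lie to the left of those of number 2 in most lists, and for telomerase and shelterin genes both lie below 0 while the fitted median is 0.94.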

How the data were processed

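RNA was sequenced from 6 libraries; the deposited files hold read counts per transcript model, made by the authors, and the authors' FPKM values, which served only to recover library totals. Per the submitters' processing notes, cutadapt, HISAT2, Cufflinks and featureCounts were used with mm10; versions, roles and strand setting are not given in the sources used here. Files of the 2 numbers were joined on exons (7695 models) or on first start and length (264). RefSeq spans (GRCm38.p6) that held at least 50% of a model named 6848 models, and genes of at most 1000 bases took a model of up to 8 times their length.

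Counts were fitted with edgeR 4.0.16 in R 4.3.3: filterByExpr, TMM on the recovered totals, robust quasi-likelihood F-tests, 2-sided, Benjamini-Hochberg over the 5385 models tested. The scripts were tested on simulated data. Alternatives covered normalization, library size, DESeq2 1.42.0, filters, the libraries fitted, a replicate block, overlapping models and dispersion. Differences within a number are log2(CPM + 0.5). Each SE is the absolute log2 difference divided by the square root of the F statistic of its test, and was not estimated separately. Models are named as the most abundant, the called, those of smallest p, those farthest above or below input, the extremes of each list, or as fixed genes; those within 10 kb of a distal mark, the ones just outside the threshold and the comparison of lengths were chosen after their values were seen. The members and lists were chosen with earlier results of these data known. Sequences of the models are not printed because no genome was used here.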

Additional observations from a re-analysis of the deposited data

How the results depend on the processing

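Higher calls numbered 14 as reported, with 0 lower. They became 57 with DESeq2's size factors, 90 without TMM factors (18 lower), 50 with the sum of model counts as library size, 101 in DESeq2 (20 lower), 92 without a filter (21 lower), 22 without robust estimation and 8 with 1 model per locus. A replicate block gave 88 higher and 18 lower; the numbers are not known to pair the libraries, and the deviations of same-numbered libraries correlated at 0.13 between input and masked TH59-DB. Without the 2 largest models there were 18 higher, with at least 10 summed reads 21, and with only the 4 libraries 16, each with 0 lower. Leaving out 1 library in turn gave 0 to 409 higher and 0 to 1004 lower. All 14 reported models were called in each of these settings except with only the 4 libraries (10 of 14), 1 model per locus (8 of 9 tested) and without input 1 or input 2 (0 of 14 each). The causes were not tested. The counts above and below both inputs stayed within 1.5 times with read minimums of 5 (800 and 794) and 20 (495 and 452). The loci over 5-fold and over 10-fold lower did not: 18 and 10 became 61 and 41 with a minimum of 5, and 3 and 1 with 20. The loci over 10-fold and over 100-fold higher were 33 and 6 with a minimum of 5, and 32 and 6 with 20.

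Signs changed for some named models, none of which passed in the fit as reported. Snord45c was at 0.18 without TMM factors, and Ybx3 at -0.027 with at least 10 reads and -0.0052 with the replicate block. Leaving out 1 library in turn gave log2 ranges of -3.06 to 5.16 for Capzb, -1.33 to 0.38 for Hspe1, -5.63 to 2.33 for Ppox, -2.22 to 0.73 for Rnu11, -2.51 to 1.39 for Rnu12 and -4.40 to 0.15 for Rny3. They were -0.64 to 0.22 for Rpph1, -0.0054 to 2.85 for Rps15a, -0.024 to 1.92 for Scarna17, -5.90 to 0.0027 for Snord13 and -6.71 to 0.70 for Snord45c. They were -2.35 to 5.05 for Terf2, -0.90 to 0.99 for Ybx3, -0.54 to 2.25 for the Zc3h7a model and -0.58 to 0.26 for the chromosome 17 model.

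The median of all models ran from -1.53 to 0.00 over the settings. Relative to it, the median of ribosomal protein genes ran from -0.87 to 0.36, of histone genes from -0.86 to 0.30, and of nuclear lncRNAs from 0.59 to 1.91. With 2 libraries a group and 1 read worth up to 0.507 CPM, a locus with few reads in both groups could not be told apart from input.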
